A study of Homo sapiens with 6 samples.

Results

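Mitochondrial complex I, the NADH:ubiquinone oxidoreductase at the head of the respiratory chain, was followed through its nuclear genes in HCT116 cells in which PNO1, a factor needed for maturation of the small ribosomal subunit, had been knocked down. The genes were those whose platform symbol begins with NDUFA, NDUFB, NDUFC, NDUFS, NDUFV, NDUFAB or NDUFAF and a number, read from probe sets with a single gene symbol, a rule on names that uses no measured value. This gave 44 genes on 92 probe sets, of 18132 genes and 49293 non-control probe sets in all: 36 subunit genes and 8 assembly factors. NDUFA4, now counted with complex IV under the name COXFA4, fell outside the symbols used. HCT116 is an established human colorectal cancer line. Both groups received a lentivirus 72 h before collection, carrying a control shRNA in sh-Ctrl and an shRNA against PNO1 in sh-PNO1, and each group held 3 samples with 1 Affymetrix array each. Nothing in the labels ties a replicate to a culture of its own, so p-values here cover only array-to-array spread, part or all of which may be technical.

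Complex I passes electrons from NADH to ubiquinone and pumps protons across the inner mitochondrial membrane. It is L-shaped: a matrix arm holds the flavin and the chain of iron-sulfur clusters, and a membrane arm holds the pumps. A small set of core subunits, shared with bacteria, carries out the chemistry. The many accessory subunits surround and stabilise the core. Assembly factors, most of them named NDUFAF, build and modify intermediates of the complex and are absent from the finished enzyme. The core subunits of the membrane arm are encoded in mitochondrial DNA, so the complex draws on 2 genomes.

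The labels held up on the targeted gene. PNO1 read 535, 535 and 532 on the sh-Ctrl arrays and 105, 108 and 105 on the sh-PNO1 arrays, so 19.9% of the control signal remained (exact two-sided permutation p = 0.1, the smallest that 3 against 3 arrays allow). Array medians lay between 25.6 and 25.9. Of 8 epithelial and colon markers, 6 exceeded 216, the level of the second-brightest of 23 background probe sets, and their summed level ranged from 9048 to 9436 on control arrays and from 9774 to 10180.0 on knockdown arrays. The 2 that did not were VIL1, an intestinal marker that averaged no more than 4.88 in either group, and CDX2, at 63.3 in sh-Ctrl and 67.2 in sh-PNO1. KRT19 and CDH1 had the largest log2 differences of the 8, sh-PNO1 minus sh-Ctrl, at 0.37 and 0.31, while 3 markers were below 0. The 6 fibroblast markers had group means of at most 15.8 and the 5 measured blood cell markers of at most 28.5. The ACTB 3′ minus 5′ log2 difference, a sign of RNA integrity, stood apart on sh-PNO1 replicate 2, at 2.25 where the remaining arrays gave 1.73 to 1.87. Without that array 27 complex I genes rose and 2 fell at the threshold used below, against 32 and 2 with it. For GAPDH it ranged from −0.03 to −0.01 among sh-Ctrl arrays and from −0.08 to −0.06 among sh-PNO1 arrays, and the part of these values and of the marker sum in the results below was not tested. In bulk RNA of this kind fewer cells of a type and less RNA per cell cannot be told apart.

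Nuclear complex I genes were mostly higher after PNO1 knockdown, by small amounts, and 2 assembly factors fell by much more. A gene was read on its brightest probe set and passed at an adjusted p under 0.05 in limma, with Benjamini-Hochberg adjustment over all 49293 probe sets. By this measure 32 of the 44 genes rose (72.7%) and 2 fell, against 18.4% of all 18132 genes that rose and 13.2% that fell. The median log2 difference, sh-PNO1 minus sh-Ctrl, was 0.19 over the 44 genes and 0.03 over all genes. Bright genes pass more easily, and among the 5076 genes at least as bright as the dimmest of the 44, a bound set after the values were seen, 31.9% rose and 23.5% fell with a median of 0.04. The 3 sh-PNO1 arrays lay wholly above the 3 sh-Ctrl arrays in 38 of the genes and wholly below in 5, against 26.3% and 18.4% of all genes. The median over the 44 genes, relative to the sh-Ctrl mean, was 0.19, 0.20 and 0.19 on the 3 sh-PNO1 arrays and between −0.01 and 0.001 on the sh-Ctrl arrays, so no single array carried the shift.

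**Figure D1:**
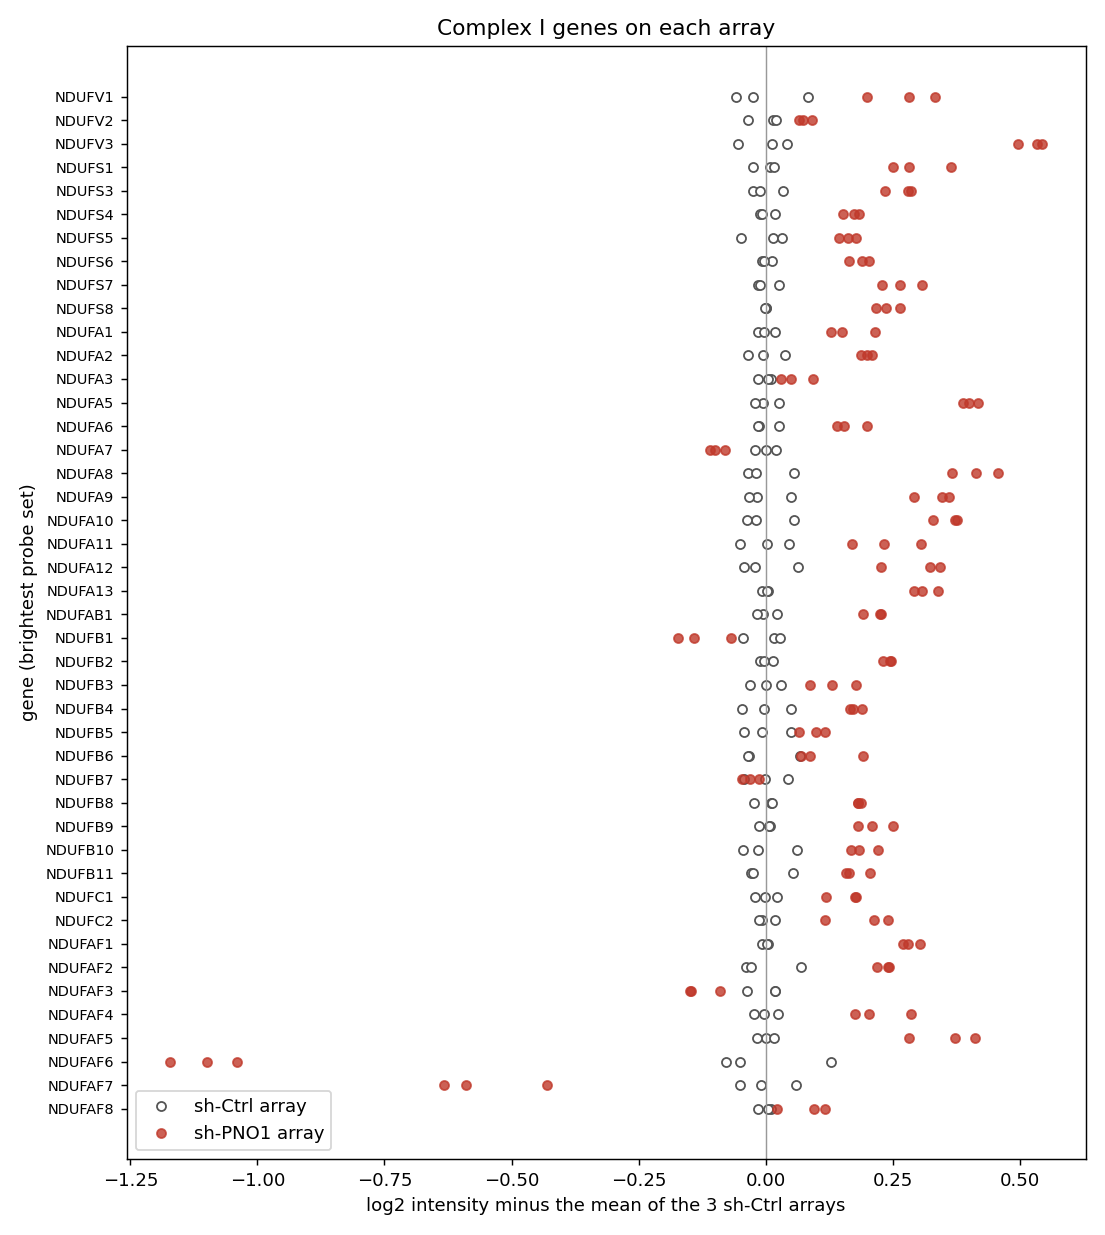
Each row is 1 gene on its brightest probe set, and the x axis gives log2 intensity minus the mean of the 3 sh-Ctrl arrays (open circles: sh-Ctrl arrays; filled: sh-PNO1 arrays). Most filled points lie between 0.1 and 0.5, and NDUFAF6 and NDUFAF7 lie far to the left.

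Counted by probe set, 54 of 92 rose and 7 fell, against 14.8% and 13.2% of all probe sets. The groups were separate, with sh-PNO1 above, in 66 and, with sh-PNO1 below, in 10, against 21.9% and 18.3% of all probe sets. One pair of NDUFB4 probe sets carried identical values. Among the 26 genes read by at least 2 probe sets, 8 rose on each of them and 1, NDUFAF7, fell on each. In 13 some passed and others did not, in 4 none passed, and 0 genes had probe sets that passed in opposite directions at this threshold. Brightness went with the calls: of the 19 probe sets with a mean intensity under 50, 4 rose and 3 fell, with a median of −0.02, while of the other 73, 50 rose and 4 fell, with a median of 0.19. Over all probe sets of the array 14.7% of those under 50 passed and 51.4% of the others.

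**Figure D2:**
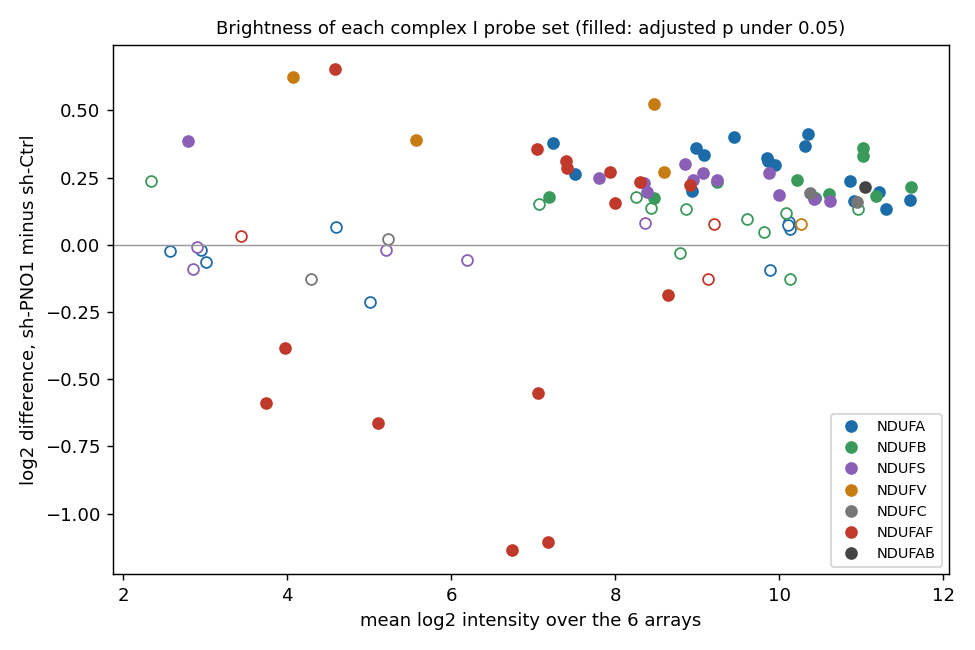
Each point is 1 of the 92 probe sets, with its mean log2 intensity on the x axis and its log2 difference on the y axis (filled: adjusted p under 0.05; colours: groups by symbol). The 7 filled points below 0 all belong to NDUFAF genes, and the lowest of them stand at −1.14 and −1.10.

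The groups by symbol differed in how evenly their members moved. In NDUFS 7 of 7 genes rose, with a median log2 difference of 0.24 and a range of 0.16 to 0.30. In NDUFA 10 of 12 rose, with a median of 0.27 and a range of −0.10 to 0.41. In NDUFB 6 of 11 rose, with a median of 0.18 and a range of −0.13 to 0.24. NDUFAF was split: 4 of 8 rose and 2 fell, with a median of 0.15 and a range of −1.10 to 0.36. Of 36 subunit genes 28 rose and 0 fell in limma; 2 were lower at an unadjusted p under 0.05, and the same 2, NDUFA7 and NDUFB1, passed as lower with a mean-variance trend and a robust prior. The differences between these groups were not tested, since genes are not replicates of a condition.

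**Figure D3:**
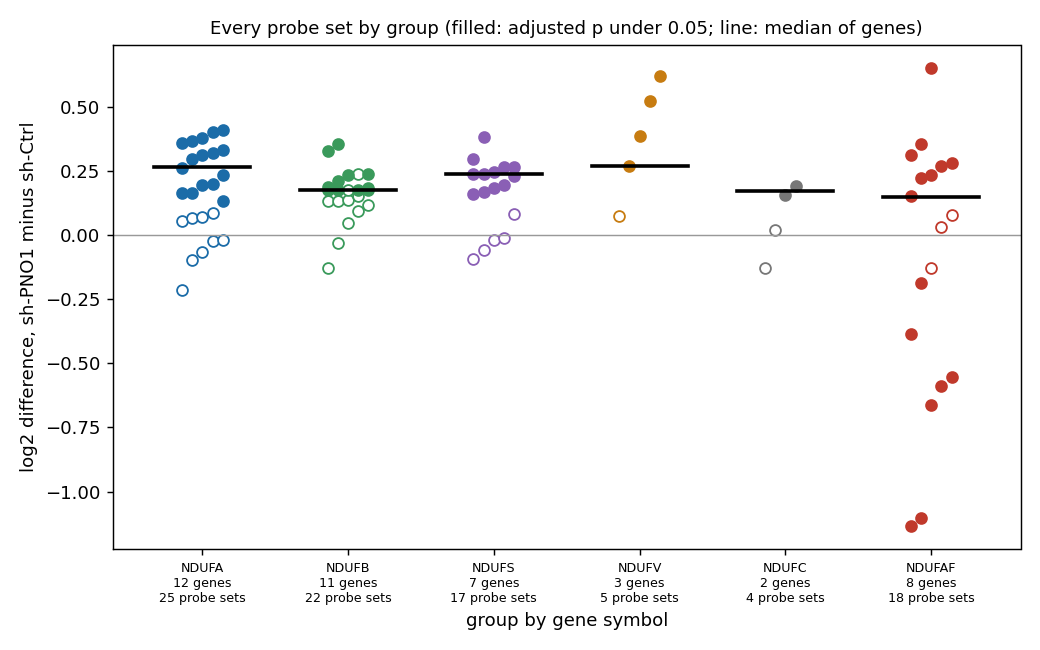
Log2 differences of every probe set by group of gene symbol, apart from the single one of NDUFAB1 (filled: adjusted p under 0.05; open: did not pass; black line: median over genes on the brightest probe set). NDUFA, NDUFB and NDUFS points lie mostly between 0 and 0.4, and NDUFAF points run from −1.14 to 0.65.

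For NDUFV3, NDUFA8, NDUFA10 and NDUFAF5, the genes with 1 listed start whose rise was largest, and for NDUFAF7, which fell, the bases just before the gene start are shown, since these promoters belong to members that moved furthest. They come from RefSeq on GRCh38.p14 and run 5′ to 3′ on the strand of the gene, for up to 250 bases or to the edge of the next protein-coding gene. Windows were found for 39 of the 44 genes, without NDUFAF6, NDUFB5, NDUFB9, NDUFC2 and NDUFS5. Of the 39 genes, 6 had several listed starts, and the first listed was used. Capitals mark matches to 5 motifs searched on both strands: the NRF1 consensus, the ETS-family motif CCGGAAG, the YY1 motif AAGATGGC, the CCAAT box (CCAAT) and the GC box (GGGCGG). The stretches lie at chr21:42893059-42893308 (+ strand, 250 bases) for NDUFV3, chr9:122159780-122159907 (− strand, 128 bases) for NDUFA8, chr2:240025343-240025592 (− strand, 250 bases) for NDUFA10, chr20:13784920-13785027 (+ strand, 108 bases) for NDUFAF5 and chr2:37231597-37231657 (+ strand, 61 bases) for NDUFAF7.
NDUFV3: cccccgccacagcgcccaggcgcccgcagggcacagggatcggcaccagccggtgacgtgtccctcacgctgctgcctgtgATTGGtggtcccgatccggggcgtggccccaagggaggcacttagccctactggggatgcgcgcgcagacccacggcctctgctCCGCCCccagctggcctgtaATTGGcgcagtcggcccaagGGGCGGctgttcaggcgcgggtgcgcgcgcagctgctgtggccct
NDUFA8: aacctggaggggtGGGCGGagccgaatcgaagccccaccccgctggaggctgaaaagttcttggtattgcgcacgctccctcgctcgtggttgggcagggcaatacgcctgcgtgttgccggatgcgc
NDUFA10: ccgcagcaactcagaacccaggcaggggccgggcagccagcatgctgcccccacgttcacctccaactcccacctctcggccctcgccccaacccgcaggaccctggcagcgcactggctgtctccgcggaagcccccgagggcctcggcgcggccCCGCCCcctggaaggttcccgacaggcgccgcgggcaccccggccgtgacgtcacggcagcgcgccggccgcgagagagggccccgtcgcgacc
NDUFAF5: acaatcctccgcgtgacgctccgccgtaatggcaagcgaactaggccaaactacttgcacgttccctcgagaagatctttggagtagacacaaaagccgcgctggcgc
NDUFAF7: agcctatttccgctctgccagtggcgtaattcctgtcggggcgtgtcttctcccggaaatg
The stretches of NDUFV3, NDUFA8 and NDUFA10 hold a GC box and that of NDUFV3 also a CCAAT box. Those of NDUFAF5 and NDUFAF7, cut to 108 and 61 bases, hold none of the 5 motifs. In the whole windows described next, NDUFA8 and NDUFAF5 also held the NRF1 motif and NDUFAF5 a CCAAT box, and NDUFAF7 still held none.

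Over whole windows of 300 bases (250 before and 50 after the start), the NRF1 motif was in 7 of 39 complex I windows (17.9%) and in 8.92% of 14425 windows of measured genes. NDUFA3, NDUFA8, NDUFA9, NDUFA11, NDUFA12, NDUFB4 and NDUFAF5 held it, and 6 of these 7 rose, beside 32 of all 44 genes (72.7%). That last share includes the 5 genes without a window, in which no motif could be read. The YY1 motif was in 6 windows (15.4%, against 4.04%), those of NDUFA3, NDUFA6, NDUFA7, NDUFA9, NDUFS4 and NDUFS7, of which 4 rose. The ETS motif was in 15.4% against 14.6%, the CCAAT box in 28.2% against 36.4% and the GC box in 56.4% against 59.7%. Of the genes with each of these, 5 of 6, 9 of 11 and 18 of 22 rose. A match describes letters in a window and not binding by a factor.

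Among the nuclear core subunits, 5 of the 6 measured rose, and the other did not pass. NDUFV1 binds NADH and the flavin and starts the electron path. It read 339, 347 and 374 in sh-Ctrl and 405, 429 and 444 in sh-PNO1, a log2 difference of 0.27 ± 0.06 SE (adjusted p = 0.00861), with no overlap between the groups. NDUFV2, which holds an iron-sulfur cluster next to it, read 1209, 1169.7 and 1214 in sh-Ctrl and 1275, 1254 and 1260.3 in sh-PNO1. Its groups did not overlap, but the difference was only 0.08 (95% interval −0.02 to 0.17) and did not pass (adjusted p = 0.218).

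NDUFS1, the large iron-sulfur subunit, went from 408, 418 and 420.2 to 535, 505 and 494 (log2 difference 0.30 ± 0.05 SE, adjusted p = 0.00209). All 3 knockdown arrays were above every control array, and 4 of its 5 probe sets rose, by 0.20 to 0.30. The fifth, which was the dimmest, stood at −0.06 with overlapping groups. NDUFS3, a core subunit without a cluster of its own, read 874, 839 and 847 in sh-Ctrl against 1036, 1004 and 1040.0 in sh-PNO1 (0.27 ± 0.04 SE, adjusted p = 0.00235). Its groups were well separated, while its second probe set, which read 8.09 or less, did not pass (−0.01).

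NDUFS7 carries the last cluster before ubiquinone. Its values were 498, 484 and 485 in sh-Ctrl and 573, 588 and 606 in sh-PNO1, a difference of 0.27 ± 0.04 SE (adjusted p = 0.00255), and 3 of its 4 probe sets rose. One of those 3 read only 5.93 to 8.23, while the one that did not pass, at 0.08, read 314 to 360.2. NDUFS8 holds 2 clusters of the same chain. It read 558, 557 and 557 in sh-Ctrl and 648, 657 and 669.6 in sh-PNO1 (0.24 ± 0.04 SE, adjusted p = 0.00298). Over the 6 nuclear core subunits the median difference was 0.27.

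Accessory subunits rose in 23 of 30 cases, with a median of 0.18. NDUFV3, a small subunit attached to the NADH-binding end, rose most of all 44 genes. It read 306, 286 and 299.8 in sh-Ctrl and 433, 419 and 429.9 in sh-PNO1, which is 1.44-fold higher (log2 difference 0.52 ± 0.05 SE, adjusted p = 0.000103). Its 2 dimmer probe sets rose as well, by 0.39 ± 0.08 SE and 0.62 ± 0.05 SE, so the 3 readings of this gene point one way.

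In the NDUFA group the largest rise was that of NDUFA8, an accessory subunit of the membrane arm, from 1172, 1100.4 and 1113 to 1502, 1453 and 1549 (log2 difference 0.41 ± 0.05 SE, adjusted p = 0.000458). Its second probe set read between 5.80 and 6.19 on every array and did not pass (−0.02). NDUFA5, on the matrix arm, read 605, 618 and 598 in sh-Ctrl and 795, 801 and 811 in sh-PNO1 (0.40 ± 0.04 SE, adjusted p = 0.000232). Its only probe set carries a suffix of those that can match several transcripts. The knockdown arrays were all above the control arrays for both genes.

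NDUFA10, a membrane-arm subunit related to nucleoside kinases, read 442, 437 and 466 in sh-Ctrl and 580.3, 582 and 563 in sh-PNO1 (0.36 ± 0.05 SE, adjusted p = 0.000696). Its other probe sets gave 0.38 and 0.26, and all 3 rose. NDUFA13, also known as GRIM19, went from 835, 828 and 834 to 1019, 1030.0 and 1053 (0.31 ± 0.04 SE, adjusted p = 0.000794). Its second bright probe set gave 0.32, but both carry suffixes of probe sets that can match several transcripts. The other 3, at 37.4 or less, did not pass, and the brightest of those stood at −0.21 (adjusted p = 0.171), so the direction of this gene rests on the shared probe sets.

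Of the other 8 NDUFA genes 6 rose. NDUFA9, which binds a nicotinamide cofactor, rose by 0.33 ± 0.05 SE and NDUFA12, a paralogue of the assembly factor NDUFAF2, by 0.30 ± 0.05 SE. NDUFA11 rose by 0.24, NDUFA2 by 0.20, and NDUFA1 and NDUFA6 by 0.16 each. NDUFA3 did not pass on any of its 4 probe sets (0.06 to 0.09; the brightest at 0.06 with a 95% interval of −0.04 to 0.15). NDUFA7 was the one NDUFA gene whose brightest probe set was below 0: it read 963, 978 and 991 in sh-Ctrl and 906, 925 and 912 in sh-PNO1. These groups did not overlap, yet the difference of −0.10 (95% interval −0.19 to −0.0016) did not pass (adjusted p = 0.125). NDUFAB1, the mitochondrial acyl carrier protein that sits in both arms, rose by 0.21 ± 0.04 SE.

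NDUFB genes, all accessory subunits of the membrane arm, had the lowest share of rises among NDUFA, NDUFB and NDUFS. NDUFB2 read 1082, 1102 and 1088 in sh-Ctrl and 1279, 1294 and 1292 in sh-PNO1 (log2 difference 0.24 ± 0.04 SE, adjusted p = 0.00272). NDUFB9 went from 2864, 2906 and 2903 to 3341, 3438 and 3277 (0.21 ± 0.04 SE, adjusted p = 0.00648). In both genes the lowest knockdown array lay well above the highest control array, and 2 further NDUFB9 probe sets gave larger differences, 0.36 and 0.33.

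NDUFB8, a subunit often used as a protein marker of assembled complex I, read 2196, 2147 and 2200.1 in sh-Ctrl and 2472, 2473 and 2483 in sh-PNO1 (0.18 ± 0.04 SE, adjusted p = 0.0107). NDUFB10 went from 1445, 1417 and 1524 to 1703, 1641 and 1659 (0.19 ± 0.05 SE, adjusted p = 0.0174). Both were higher on 3 of 3 arrays. NDUFB4 and NDUFB11 rose by 0.18 each. NDUFB4, NDUFB10 and NDUFB11 no longer passed without sh-Ctrl replicate 1, or without sh-Ctrl replicate 2, and 3 NDUFB genes rose in either case, against 6 with all arrays.

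Of the other 5 NDUFB genes none passed. NDUFB3 stood at 0.13 (adjusted p = 0.0654), NDUFB6 at 0.12, NDUFB5 at 0.09 and NDUFB7 at −0.03 (95% interval −0.13 to 0.07). NDUFB1, on its only probe set, read 1187, 1198 and 1139 in sh-Ctrl and 1065, 1119.6 and 1042 in sh-PNO1. The difference was −0.13 (95% interval −0.24 to −0.02, adjusted p = 0.0857), with groups that did not overlap. NDUFB3, NDUFB6, NDUFB5 and NDUFB1 passed under some other settings given in the closing section.

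The remaining subunits rose within a narrow band. NDUFC1 read 1864, 1894 and 1839 in sh-Ctrl and 2026, 2109 and 2109.6 in sh-PNO1 (log2 difference 0.16 ± 0.04 SE, adjusted p = 0.0264). NDUFC2 went from 1253, 1231 and 1226 to 1342, 1435 and 1462 (0.19 ± 0.05 SE, adjusted p = 0.0195), with both dimmer probe sets not passing. The NDUFC values were higher on 3 of 3 arrays for each gene. NDUFS6, a zinc-binding accessory subunit needed late in assembly of the matrix arm, rose by 0.19, NDUFS4 by 0.17 and NDUFS5 by 0.16. By place in the complex, 13 of 15 matrix-arm subunits rose with a median of 0.27, and 14 of 20 membrane-arm subunits with a median of 0.18. The 6 nuclear core subunits all lie in the matrix arm, and these 20 membrane-arm subunits are all accessory. Among accessory subunits of the matrix arm alone, 8 of 9 rose, with a median of 0.20.

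The assembly factors held the largest falls and 4 rises. NDUFAF6 is needed for the early membrane intermediate around the mitochondrially encoded ND1 subunit. Its brightest probe set read 233, 206 and 202 in sh-Ctrl and 94.6, 99.4 and 104 in sh-PNO1; the highest knockdown array stood far below the lowest control array. The log2 difference was −1.10 ± 0.07 SE (0.465-fold, adjusted p = 1.79e-05). A second probe set went from 159.9, 161 and 156 to 71.3, 78.6 and 67.5 (−1.14 ± 0.06 SE, adjusted p = 1.18e-05). The next in brightness, between 15.5 and 18.0 on control arrays and between 8.29 and 13.4 on knockdown arrays, also passed (−0.59 ± 0.16 SE). The dimmest, at 10.4 to 11.6 over all arrays, did not (0.03).

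NDUFAF7 is a methyltransferase of the mitochondrial matrix. It read 160.1, 168 and 155 in sh-Ctrl and 104, 107 and 119 in sh-PNO1, with no overlap (log2 difference −0.55 ± 0.06 SE, 0.682-fold, adjusted p = 0.000424). The dimmer probe sets went the same way, by −0.66 ± 0.08 SE and −0.38 ± 0.09 SE, and 3 of 3 fell.

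NDUFAF5, which hydroxylates the core subunit NDUFS7, went the opposite way. It read 117, 116 and 119 in sh-Ctrl and 143, 156 and 152 in sh-PNO1 (log2 difference 0.36 ± 0.05 SE, adjusted p = 0.001). NDUFAF1, a member of the MCIA complex that builds part of the membrane arm, went from 153, 155 and 154 to 186, 187 and 190.3 (0.28 ± 0.04 SE, adjusted p = 0.00122), and its other probe set gave 0.31. For both genes the knockdown arrays were all above the control arrays.

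NDUFAF3 and NDUFAF4 act as a pair on the matrix-arm intermediate, and their transcripts differed in direction. NDUFAF4 rose on all 3 probe sets, by 0.22 ± 0.05 SE on the brightest, 0.27 ± 0.05 SE on the next and 0.65 ± 0.07 SE on one that read only 18.2 to 32.1. NDUFAF3 had negative differences on both of its probe sets. The brightest read 596, 596 and 573 in sh-Ctrl and 531, 553 and 531 in sh-PNO1 and did not pass (−0.13, adjusted p = 0.0634), while the other went from 419, 425 and 439 to 372, 376 and 379 and passed (−0.19 ± 0.04 SE, adjusted p = 0.0125). The mean of both probe sets also passed as lower (−0.16, adjusted p = 0.00573). NDUFAF2 rose by 0.23 ± 0.05 SE. NDUFAF8, the partner of NDUFAF5, stood at 0.08 on its brightest probe set (adjusted p = 0.245) and rose by 0.15 on the other (adjusted p = 0.0268). All 36 subunit genes exceeded 216, the second-brightest background probe set, in at least 1 group, and 4 of the 8 assembly factors did. NDUFAF1, NDUFAF5, NDUFAF6 and NDUFAF7 did not exceed it, and their levels are nearer to the background than those of the other complex I genes. NDUFAF6 missed it narrowly, with a mean of 213.5 in sh-Ctrl. The median of the 23 background probe sets was 4.24, far below the levels of these 4 genes. The brightest background probe set stood at 804, and only 25 complex I genes exceeded that level in at least 1 group.

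**Figure D4:**
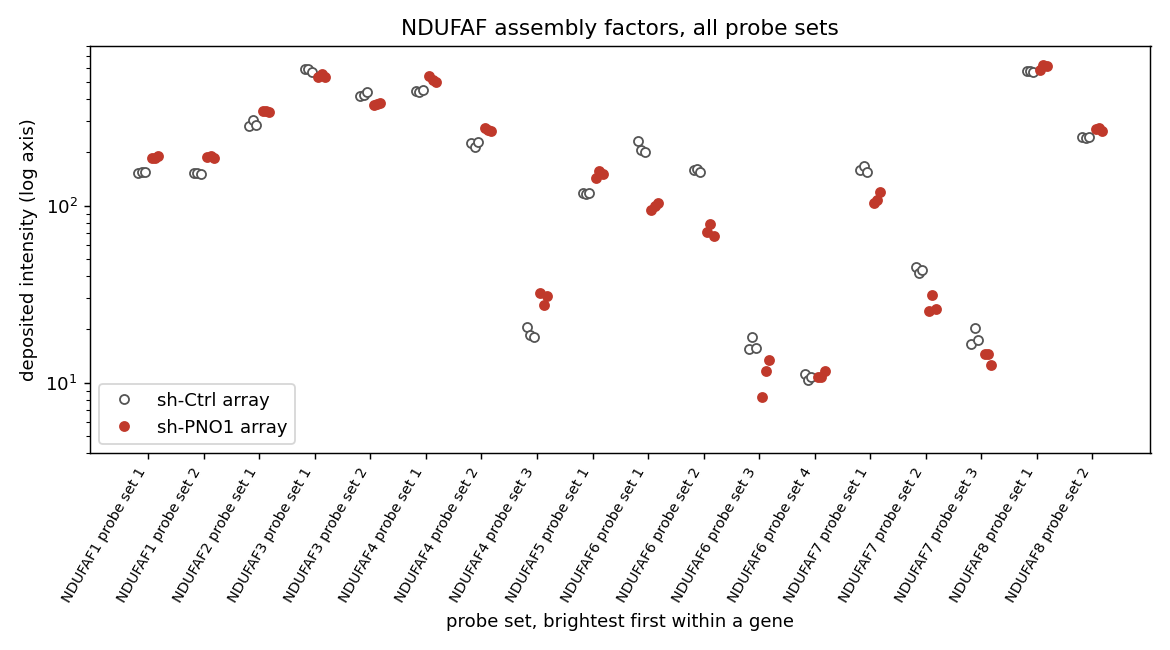
Deposited intensity on a log axis for each of the 18 NDUFAF probe sets (open circles: 3 sh-Ctrl arrays; filled: 3 sh-PNO1 arrays; brightest probe set first within a gene). NDUFAF6 and NDUFAF7 are lower in sh-PNO1 on all but the dimmest NDUFAF6 probe set, while NDUFAF1, NDUFAF2, NDUFAF4 and NDUFAF5 are higher on each probe set.

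Some complex I genes start back to back with a neighbour on the opposite strand, and the symbol rule did not use these neighbours. With RefSeq gene starts on GRCh38.p14, 14 of the complex I genes had a measured neighbour that starts within 1000 bases upstream in the other direction. Of the 14 neighbours 4 rose and 2 fell, beside 18.4% and 13.2% of all genes. NDUFAF7 and CEBPZ, a factor of large ribosomal subunit assembly, start 62 bases apart. While NDUFAF7 fell, CEBPZ stood at 0.17 (95% interval 0.02 to 0.31, adjusted p = 0.0964). NDUFAF2 starts 135 bases from ERCC8, a DNA repair gene, which fell by 0.34 while NDUFAF2 rose. NDUFA1 and NDUFA2 rose by less than their neighbours RNF113A (0.58) and IK (0.50), both linked to splicing. RBM10, beside NDUFB11, rose by 0.18 and TEPSIN, beside NDUFAF8, by 0.36. CPSF2, beside NDUFB1, fell by 0.39.

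Of the 7 complex I genes of mitochondrial DNA listed, 2 were measured, and both encode membrane-arm core subunits. ND1 read 3687, 3610.1 and 3641 in sh-Ctrl and 4244, 3901 and 3861 in sh-PNO1, a log2 difference of 0.13 (95% interval 0.02 to 0.25, adjusted p = 0.0886). ND4 read 8338, 8445 and 8175 in sh-Ctrl and 7809, 8039 and 7937 in sh-PNO1, a difference of −0.07 (95% interval −0.17 to 0.03, adjusted p = 0.265). Neither passed, in opposite directions and with groups that did not overlap.

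Of complex I assembly genes with other names 6 of 16 rose (37.5%) and 2 fell (12.5%), with a median of 0.08. Over all genes the shares were 18.4% and 13.2%, and over genes at least as bright as the dimmest complex I gene 31.9% and 23.5%. NUBPL, which delivers iron-sulfur clusters to complex I, rose by 0.63 ± 0.05 SE (adjusted p = 9.58e-05) and TMEM126A by 0.52 ± 0.05 SE (adjusted p = 0.000103). ECSIT, a partner of NDUFAF1 in the MCIA complex, rose by 0.61 ± 0.09 SE and TMEM126B, another partner, by 0.20, whereas ACAD9, also a partner, stood at 0.03 (95% interval −0.08 to 0.14). TMEM186 and OXA1L, the membrane insertase, fell by 0.19 and 0.17; ECSIT, ACAD9, TMEM126B, TMEM186 and OXA1L were named after their values were seen.

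In the other respiratory complexes, read from lists of nuclear subunits and assembly genes, 19 of 66 measured genes rose (28.8%) and 6 fell (9.09%), with a median log2 difference of 0.10. Over all genes 18.4% rose and 13.2% fell, and over the genes at least as bright as the dimmest complex I gene 31.9% and 23.5%. For the 44 complex I genes the figures were 72.7%, 4.55% and 0.19, and the difference between the complexes was not tested. The sets are also unlike. The complex I figures leave out its 16 assembly genes with other names, while the lists of complexes II to V hold assembly genes of various names. Of those 16, 6 rose and 2 fell, with a median of 0.08. Whether or not they passed, 50 of the 66 genes had differences above 0. Groups did not overlap, with sh-PNO1 above, in 41 of the 66 and, with sh-PNO1 below, in 10. These counts were 14 and 3 of 20 in complex V and 38 and 5 of 44 in complex I, against 26.3% and 18.4% of all genes. In complex II, which feeds electrons from succinate, 3 of 7 genes rose, among them the membrane anchor SDHD by 0.32 ± 0.04 SE and the flavinylation factor SDHAF2 by 0.18 ± 0.04 SE. In complex III 5 of 14 rose and 1 fell, and the smallest adjusted p were those of the core protein UQCRC1 (0.35 ± 0.04 SE) and BCS1L, which inserts the Rieske iron-sulfur protein (0.29 ± 0.04 SE). In complex IV 9 of 25 rose and 3 fell, and COX14, an assembly factor, rose by 0.50 ± 0.05 SE and the subunit COX5A by 0.30 ± 0.04 SE. In complex V, the ATP synthase, 2 of 20 rose and 2 fell (10% each): the peripheral-stalk subunit ATP5PB rose by 0.21 ± 0.04 SE and the assembly factor ATPAF1 fell by 0.23 ± 0.04 SE. With the mean of a gene's probe sets in place of the brightest, 31 of the 66 genes rose.

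**Figure D5:**
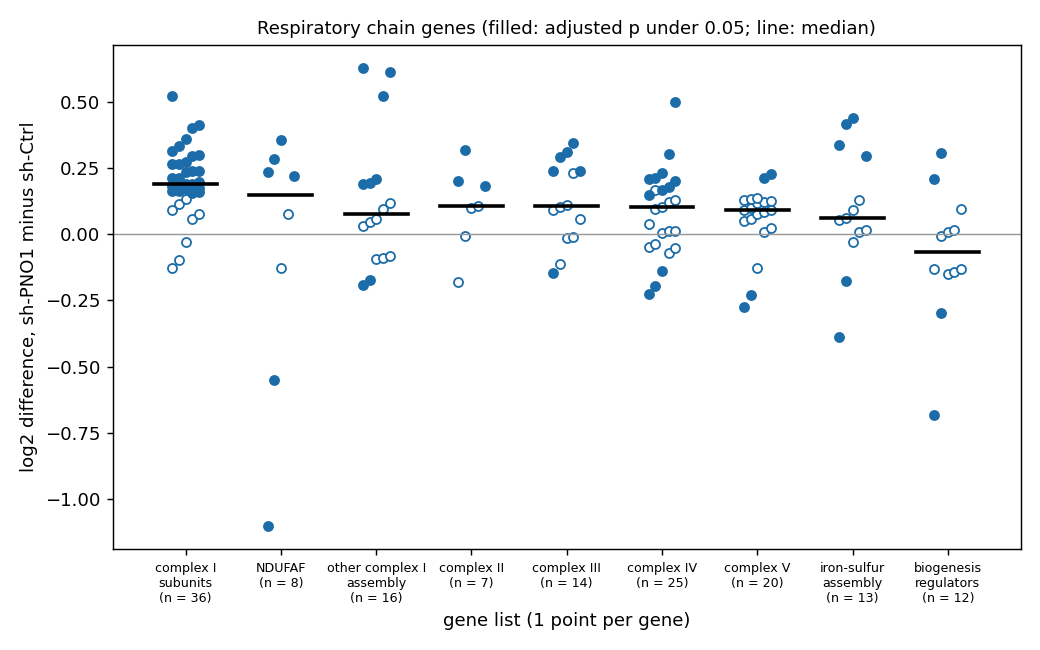
Log2 differences of each measured gene (brightest probe set) for complex I subunits, NDUFAF genes, other complex I assembly genes, complexes II to V, iron-sulfur assembly and biogenesis regulators, with filled points at an adjusted p under 0.05 and a black line at each median. The medians are 0.19 for the 36 subunit genes, 0.15 for the 8 NDUFAF genes and between 0.09 and 0.11 for complexes II to V.

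Iron-sulfur cluster assembly, on which complex I depends for its electron path, held 4 of 13 genes that rose (30.8%) and 2 that fell (15.4%), with a median of 0.06, beside 31.9% and 23.5% of the genes at least as bright as the dimmest complex I gene. The cysteine desulfurase NFS1 rose by 0.42 ± 0.04 SE (adjusted p = 0.000256) and the ferredoxin FDX1 by 0.34 ± 0.04 SE (adjusted p = 0.000723). The members that fell were the chaperone HSPA9, by 0.39, and the late-acting carrier NFU1, by 0.18, both named after their values were seen. Among 12 regulators of mitochondrial biogenesis 2 rose and 2 fell (16.7% each), with a median of −0.07, beside 18.4% and 13.2% of all genes. GABPA, the DNA-binding subunit of an ETS-family factor, read 138, 176 and 140.1 in sh-Ctrl and 98.3, 92.3 and 90.7 in sh-PNO1 (−0.68 ± 0.09 SE, adjusted p = 0.00101). POLRMT, the mitochondrial RNA polymerase, rose by 0.31 ± 0.05 SE (adjusted p = 0.00318). Named after their values were seen, YY1 fell by 0.30 ± 0.06 SE, TFB2M rose by 0.21 and NRF1 stood at −0.13 with overlapping groups (adjusted p = 0.202). Transcript levels of these regulators were measured, not their activity.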

How the data were processed

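Total RNA (100 ng) from 3 sh-Ctrl and 3 sh-PNO1 samples was hybridised to 1 Affymetrix array each. The deposited intensity values are on a linear scale and were made by the authors with RMA, per the submitters' processing notes. The genome build is not given in the sources used here. Of 49395 rows, 102 control probe sets were left out, and log2 of the other 49293 entered limma 3.58.1 (R 4.3.3; lmFit and eBayes, two-sided, Benjamini-Hochberg over all of them). Probe sets had 1 gene symbol (44988), several (1832) or none (2473), and only the first were named. A gene was read on its brightest probe set. Full values are given for core subunits, for the up to 4 NDUFA, NDUFB, NDUFS and NDUFAF genes and up to 2 NDUFV and NDUFC genes of smallest adjusted p, and for genes that fell. In each other list the 2 of smallest adjusted p are named. Members, lists and rules were chosen with earlier results of these data known. On simulated data with 200 of 49293 probe sets changed, log2 changes of 0.25, 0.5 and 1 were recovered in 0%, 66.0% and 96.5%. In the data themselves 7306 probe sets rose and 6485 fell, so the Benjamini-Hochberg cutoff was less strict than in the simulation. These rates therefore do not give the recovery of small changes here. The number of arrays limits the precision.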

Additional observations from a re-analysis of the deposited data

How the results depend on the processing

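Of 34 complex I genes that passed, 24 did so at an adjusted p under 0.05 in each alternative run that read them. NDUFAF6 and NDUFAF7 were among them, and 43 of 44 genes kept their direction in the runs that read them. The exception was NDUFA13, at −0.21 (adjusted p = 0.181) without probe sets of the suffixes _x_at and _s_at. Without those, NDUFA5, NDUFAF2, NDUFB4, NDUFB11, NDUFS5 and NDUFV2 had no reading. Of the smaller number of probe sets left 34 rose, 27 genes rose, and the NDUFA median was 0.20. With the mean of a gene's probe sets, the NDUFA median was 0.20, the NDUFS median 0.16, and 4 genes fell, 1 of them NDUFB1 in the NDUFB group; NDUFS4 (0.04), NDUFC2 (0.03) and NDUFA13 (0.07, adjusted p = 0.166) no longer passed. With a mean-variance trend and a robust prior 5 genes fell, of which 1 was an NDUFA gene and 1 an NDUFB gene. There 9 NDUFB genes rose, NDUFB3 (adjusted p = 0.00467), NDUFB6 (0.0451) and NDUFB5 (0.05 after rounding) among them, and NDUFAF3 fell (adjusted p = 0.0111). At an adjusted p under 0.01, 20 genes rose, 2 of them NDUFB and 4 of them NDUFS genes, and 4 probe sets fell. Leaving out 1 array at a time gave 25 to 30 genes higher and 2 lower, 44 to 51 probe sets higher and 6 to 7 lower, and 3 to 6 NDUFB genes higher. NDUFA1, NDUFA6, NDUFC1, NDUFC2 and NDUFS5 were among the genes that then lost their call in some cases, at adjusted p of at most 0.0756. The deviations of same-numbered arrays from their group means had correlations of −0.0363, 0.097 and −0.0318. Those of differently numbered arrays ran from −0.0544 to 0.0873, so the pair of replicates 2 was the highest of all, by little. With the replicate number as a block, 28 genes rose and 2 fell, and 48 probe sets rose and 7 fell. Causes of these shifts were not tested.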
